A study of Rattus norvegicus with 12 samples.

Results

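Cyclin and proliferation genes were followed in the livers of male Sprague-Dawley rats fed 4 diets. The 8 genes were the D-type cyclins Ccnd1, Ccnd2 and Ccnd3, cyclin G1 (Ccng1), cyclin B1 (Ccnb1), the kinase Cdk1, the replication clamp Pcna and the topoisomerase Top2a. They were found as the probe sets to which the platform annotation gives 1 of these symbols and no other, which were 20 of the 8740 probe sets tested and 8 of the 4736 genes named. Ccnd1 had 5 probe sets, Ccnd3 had 4, Top2a had 3, Ccnd2, Ccnb1 and Pcna had 2 each, and Ccng1 and Cdk1 had 1 each. Probe sets of 1 gene share their target and are not replicates of each other.

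Each of 12 single-colour Affymetrix arrays held a pool of liver RNA, and there were 3 arrays per diet. The diets were 70% fat as corn oil, 5% fat as corn oil, 70% fat as olive oil and 5% fat as olive oil. Corn oil is rich in polyunsaturated and olive oil in monounsaturated fatty acids. All rats, which weighed 150 g at the start, were cannulated and overfed by 17% of calories for 21 days by total enteral nutrition, a liquid diet infused into the stomach. No group of the 4 was fed freely or unfed, and since the diets were isocaloric, 70% fat also meant less carbohydrate. How many rats made up a pool, and whether pools held different rats, is not stated in the labels, so a p-value measures the spread between pools, which may be technical. The protocol also names echium oil, which is not analysed here. The comparisons ask how the level and the kind of dietary fat go with the liver's transcripts.

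Cyclins are the regulatory partners of the cyclin-dependent kinases. Growth signals raise D-type cyclins, which with CDK4 and CDK6 phosphorylate the retinoblastoma protein and so release E2F factors, and these turn on replication genes such as Pcna. Later in the cycle Ccnb1 and Cdk1 drive entry into mitosis and Top2a untangles the copied chromosomes, while Ccng1 is a target of p53 and not a driver of the cycle. Adult hepatocytes are mostly quiescent and re-enter the cycle after injury or resection, so in this tissue the mitotic genes are usually low and Ccnd1, which hepatocytes also regulate with nutrition, is a member with a known role outside division.

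Every value is a log2 difference from that probe set's median over the 12 arrays, as deposited, so the data show which diet was higher or lower and not how much RNA there was. For that reason the liver origin of the RNA could not be checked against the absolute level of hepatocyte markers, and levels could not be set against each other between genes. In a pool of whole liver RNA, fewer cells of a type and less RNA per cell cannot be told apart. Array medians ran from -0.03 to 0.06. As a relative measure of RNA and labelling quality each array has a 3'/5' index from the actin and GAPDH controls. The value at the 5' end is subtracted from that at the 3' end and the results are averaged. Since these values are centred too, the index only compares arrays with each other, and below 0 it does not mean a stronger 5' signal. It ran from 0.16 to 1.03 in the 70% corn oil pools and from 0.97 to 1.5 in the 5% corn oil pools. It ran from -0.41 to -0.23 in the 70% olive oil pools and from -0.43 to -0.31 in the 5% olive oil pools. The oils did not overlap on this index, so in every comparison of oils below the oil and the index cannot be told apart.

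The promoters of cell cycle genes carry short elements through which they are switched on together, and 4 are printed here because they belong to the replication and mitosis members with and without a change in the data. Each is the window from 250 bases before to 50 bases from the start site on, from RefSeq on GRCr8, and the capitals mark the CCAAT box (CCAAT, or ATTGG on the other strand), the CHR element (TTTGAA, or TTCAAA) and an E2F element (TTTCGCGC, or GCGCGAAA). The windows are chr2:33655176-33655475 on the minus strand for Ccnb1, chr20:19265043-19265342 on the plus strand for Cdk1, chr10:84473044-84473343 on the minus strand for Top2a and chr3:139955771-139956070 on the minus strand for Pcna.
Ccnb1: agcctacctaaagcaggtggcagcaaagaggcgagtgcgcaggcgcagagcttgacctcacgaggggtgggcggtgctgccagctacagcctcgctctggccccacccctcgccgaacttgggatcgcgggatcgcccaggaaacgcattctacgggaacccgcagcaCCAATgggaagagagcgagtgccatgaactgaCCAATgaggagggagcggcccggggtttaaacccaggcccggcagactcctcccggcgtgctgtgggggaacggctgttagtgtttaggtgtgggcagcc
Cdk1: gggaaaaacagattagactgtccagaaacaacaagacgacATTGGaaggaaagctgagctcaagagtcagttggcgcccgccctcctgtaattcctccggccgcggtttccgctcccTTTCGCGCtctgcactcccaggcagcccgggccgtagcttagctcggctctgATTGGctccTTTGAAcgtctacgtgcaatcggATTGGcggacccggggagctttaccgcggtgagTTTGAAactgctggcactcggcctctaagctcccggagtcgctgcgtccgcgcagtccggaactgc
Top2a: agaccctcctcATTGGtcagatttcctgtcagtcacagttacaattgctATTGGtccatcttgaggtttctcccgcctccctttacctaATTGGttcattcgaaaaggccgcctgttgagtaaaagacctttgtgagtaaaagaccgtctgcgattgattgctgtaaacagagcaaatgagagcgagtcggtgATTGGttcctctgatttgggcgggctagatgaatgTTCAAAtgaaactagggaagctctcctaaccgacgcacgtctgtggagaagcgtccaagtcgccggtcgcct
Pcna: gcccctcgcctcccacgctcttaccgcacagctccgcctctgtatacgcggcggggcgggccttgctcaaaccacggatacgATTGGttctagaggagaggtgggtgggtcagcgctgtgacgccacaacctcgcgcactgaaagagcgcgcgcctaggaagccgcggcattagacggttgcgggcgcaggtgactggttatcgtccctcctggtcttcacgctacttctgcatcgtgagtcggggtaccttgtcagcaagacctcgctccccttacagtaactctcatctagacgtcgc

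Of the 33469 windows of this length, 37.5% held at least 1 CCAAT box, 18.3% a CHR element and 0.326% the E2F element. Ccnb1 held 2 CCAAT boxes, at -82 to -78 and -50 to -46 counted from the start site. Cdk1 held 3 CCAAT boxes, 2 CHR elements and the E2F element, Top2a held 4 CCAAT boxes and 1 CHR element, and Pcna held 1 CCAAT box. No matches of different elements overlapped in these 4 windows. At least 2 CCAAT boxes were found in 11.2% of all windows, and Ccnb1, Cdk1 and Top2a were among those. Only these exact letters were searched, so a form of an element spelled otherwise is not marked or counted. A match describes the letters of a window and says nothing of a factor's binding. Among the other members, Ccnd3 held 1 and Ccng1 held 3 CCAAT boxes, and Ccnd1 and Ccnd2 were not among the windows matched by symbol.

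Ccnd1, the D-type cyclin that hepatocytes raise when they leave quiescence, was higher in 5% corn oil than in 5% olive oil livers on 3 of its 5 probe sets. On D14014_g_at the values were 0.66, 0.62 and 0.61 in the 5% corn oil pools, against -0.25, -0.13 and -0.51 in the 5% olive oil pools. In the 70% corn oil pools they were -0.06, 0.06 and -0.13, and in the 70% olive oil pools 0.10, -0.22 and 0.50. The 3 pools of 5% corn oil thus lay above all the other 9 pools, close together, while the pools of 70% olive oil were spread widely. At 5% fat the corn oil livers were 1.90-fold above the olive oil livers on this probe set (log2 difference 0.92 ± 0.15, SE, 3 arrays per diet, limma adjusted p = 0.00153). The other two called Ccnd1 probe sets rose as well, rc_AI231257_at by 0.55 ± 0.11 (adjusted p = 0.00525) and X75207_s_at by 0.61 ± 0.17 (adjusted p = 0.0277).

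The remaining Ccnd1 probe sets gave smaller differences between the oils at 5% fat. D14014_at, whose ID names the same sequence as D14014_g_at, was at 0.24 ± 0.15 (adjusted p = 0.287, 95% interval -0.08 to 0.56) and rc_AA957218_at at 0.13 ± 0.09 (adjusted p = 0.338, 95% interval -0.06 to 0.33). All 5 were above 0, and as 1 value per gene Ccnd1 was at 0.49 ± 0.10 (adjusted p = 0.00588 over 4736 genes). The calls of D14014_g_at and rc_AI231257_at held without each of the 12 arrays in turn, and that of X75207_s_at ended without any 1 of 4 (adjusted p up to 0.106). These 4 were pools 1 and 2 of 5% corn oil and pools 2 and 3 of 5% olive oil, where the difference ran down to 0.47. With the 3'/5' index in the model, which differed by 1.64 between these diets, no probe set of the 8740 was called. D14014_g_at, rc_AI231257_at and X75207_s_at were then at 1.06 ± 0.42, 0.29 ± 0.30 and 0.40 ± 0.48 (adjusted p from 0.823 to 0.909). These SEs were wider than without the index. Since the oils do not overlap on it, this fit cannot tell oil and index apart.

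By fat level 1 of the 5 Ccnd1 probe sets passed with corn oil and 0 with olive oil by limma (2 at an unadjusted p under 0.05 with each oil). The test of the difference between the fat effects, corn minus olive oil, passed for none of the 5. With corn oil D14014_g_at was 1.59-fold lower at 70% than at 5% fat (-0.67 ± 0.15, adjusted p = 0.0463), and its 3 pools at 70% did not overlap the 3 at 5%. This was the 1 call among the 20 probe sets in the corn oil comparison, where 2.11% of all probe sets were called, 0.801% of all as lower. Of the 12 fits that each left out an array 9 lost it (adjusted p up to 0.140), among them those without each of the 6 corn oil arrays, and so did 6 of 7 other settings (adjusted p up to 0.254), with the difference between -0.72 and -0.53 throughout. rc_AI231257_at had -0.01, 0.00 and 0.12 in the 70% corn oil pools, against 0.67, 0.22 and 0.30 in the 5% corn oil pools (-0.36 ± 0.11, adjusted p = 0.117). X75207_s_at was at -0.23 ± 0.17 (adjusted p = 0.529). As 1 value per gene Ccnd1 was at -0.30 with corn oil (adjusted p = 0.129) and 0.29 with olive oil (adjusted p = 0.360). The index was lower at 70% than at 5% fat with corn oil, with a difference of -0.56, and with the index in the model D14014_g_at was at -0.72 (adjusted p = 0.205). This comparison and that of the oils at 5% fat share the 5% corn oil arrays.

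With olive oil X75207_s_at had 0.12, -0.23 and 0.58 in the 70% pools, against -0.23, -0.33 and -0.70 in the 5% pools (0.58 ± 0.17, adjusted p = 0.304). D14014_g_at was at 0.42 ± 0.15 (adjusted p = 0.433) and D14014_at at 0.28 ± 0.15 (adjusted p = 0.703). None of these passed the test, and on D14014_g_at the pools overlapped. The test of the difference between the fat effects, corn minus olive oil, gave -1.09 ± 0.22 for D14014_g_at, the 8th smallest p of 8740 (unadjusted p = 0.000292, adjusted p = 0.255). For X75207_s_at it gave -0.80 ± 0.25 (adjusted p = 0.328) and for rc_AI231257_at -0.51 ± 0.16 (adjusted p = 0.340).

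**Figure D1:**
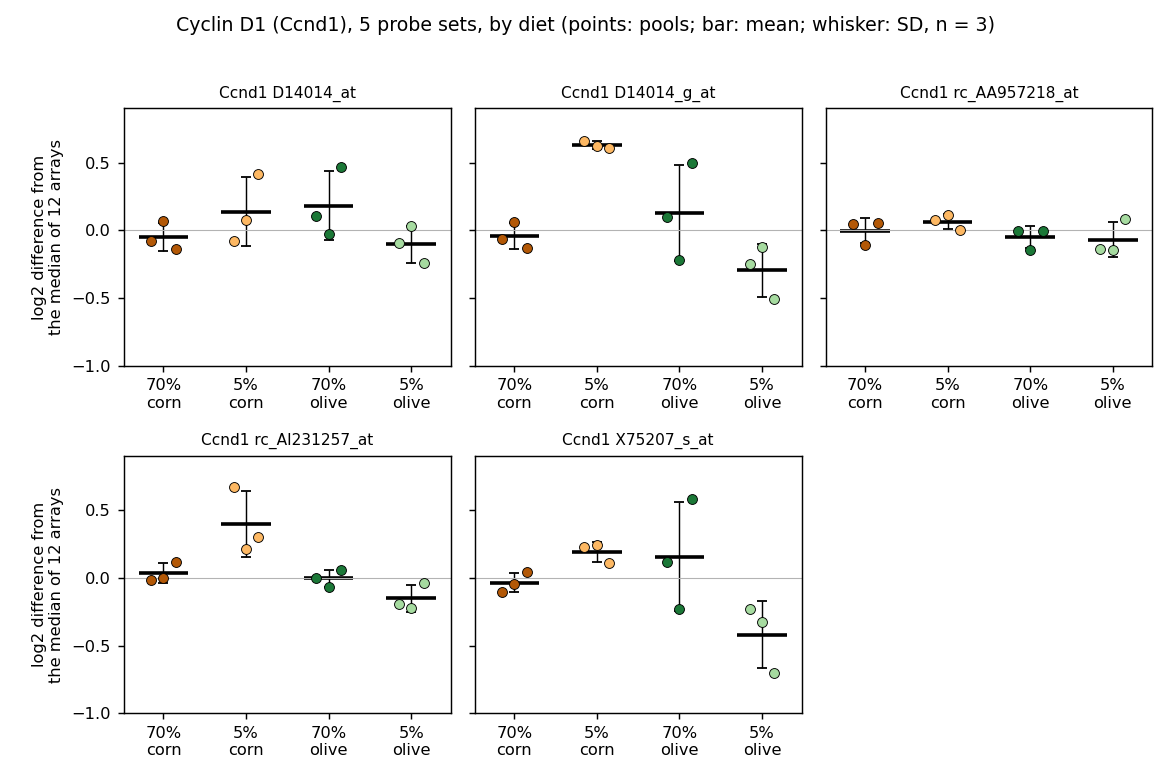
Values of the 5 Ccnd1 probe sets (y axis, log2 difference from the median of 12 arrays) in the 4 diets, with a point per pool, a bar at the mean and a whisker of 1 SD (n = 3). On D14014_g_at the 5% corn oil pools, from 0.61 to 0.66, lie above all other pools, while rc_AA957218_at stays between -0.15 and 0.11 in all diets.

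Ccnd2, a second D-type cyclin, was also higher with corn oil at 5% fat, on 1 of its 2 probe sets. rc_AA899106_at had 0.44, 0.63 and 0.47 in the 5% corn oil pools, against -0.28, -0.09 and -0.15 in the 5% olive oil pools, a 1.61-fold rise (0.69 ± 0.18, adjusted p = 0.0192). The 70% corn oil pools had 0.36, 0.31 and -0.17 and the 70% olive oil pools 0.02, -0.02 and -0.68, so in both diets of 70% fat pool 3 was the low one. The call ended without pool 2 of 5% corn oil or pool 1 of 5% olive oil (adjusted p up to 0.0689), and it was also lost after a second quantile normalization (0.64, adjusted p = 0.0524) and with the index as a covariate (0.95, adjusted p = 0.824). D16308_at was at 0.25 ± 0.15 in the same comparison (adjusted p = 0.258), and as 1 value per gene Ccnd2 was at 0.47 ± 0.14 (adjusted p = 0.034).

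By fat level neither Ccnd2 probe set passed. With corn oil the differences were -0.35 ± 0.18 on rc_AA899106_at (adjusted p = 0.338) and -0.22 ± 0.15 on D16308_at (adjusted p = 0.458). D16308_at had 1 pool of 70% corn oil at -0.56, with the other 8 corn oil and 70% olive oil pools between -0.09 and 0.10. With olive oil they were -0.05 ± 0.18 and 0.22 ± 0.15 (adjusted p = 0.975 and 0.777).

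Ccnd3, the third D-type cyclin, passed no test. Over the 4 probe sets and the 4 comparisons of diets its differences lay between -0.12 and 0.17, with adjusted p from 0.338 upward. U49935mRNA_s_at had 0.08, 0.11 and 0.17 in the 70% olive oil pools, against -0.04, -0.05 and 0.04 in the 5% olive oil pools (0.14 ± 0.09, adjusted p = 0.777, 95% interval -0.06 to 0.34). For D16309_at the 95% intervals were -0.31 to 0.13 for the fat effect with corn oil and -0.13 to 0.30 for corn minus olive oil at 5% fat.

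Ccng1, the cyclin induced by p53, had the widest spread between pools of a diet. Its 1 probe set gave 0.51, 0.04 and -0.55 in the 70% corn oil pools and -0.34, -0.20 and -0.21 in the 5% corn oil pools. The olive oil pools gave 0.54, 0.25 and 0.11 at 70% and 0.67, -0.04 and -0.09 at 5% fat. The 5% corn oil pools were thus all below the 5% olive oil pools (-0.43 ± 0.25, adjusted p = 0.253), a difference that did not pass. The fat effects were 0.26 ± 0.25 with corn oil (adjusted p = 0.644) and 0.12 ± 0.25 with olive oil (adjusted p = 0.955).

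Pcna, the sliding clamp of DNA polymerases, differed between its 2 probe sets. On M24604_g_at the corn oil pools were the low ones, with -0.37, -0.06 and -0.97 at 70% fat, against 0.18, 0.22 and 0.11 in the 70% olive oil pools. At 70% fat this was a 1.56-fold lower value with corn oil (-0.64 ± 0.17, adjusted p = 0.0435). At 5% fat the values were -0.36, -0.58 and -0.31 with corn oil, against 0.10, 0.06 and 0.09 with olive oil (-0.50 ± 0.17, adjusted p = 0.0664). All 6 corn oil pools lay below all 6 olive oil pools.

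M24604_at, whose ID names the same sequence, had 0.39, 0.12 and 0.34 in the 5% corn oil pools, against -0.08, -0.01 and -0.18 in the 5% olive oil pools. Here corn oil was the higher (0.38 ± 0.18, adjusted p = 0.169), so at 5% fat the sign depended on the probe set. At 70% fat both were lower with corn oil, M24604_at at -0.24 ± 0.18 (adjusted p = 0.483), and as 1 value per gene Pcna was at -0.44 (adjusted p = 0.148). Over the 12 arrays the probe sets correlated at r = 0.31. Of the 20 probe sets M24604_g_at had the correlation with the 3'/5' index that was farthest from 0 (r = -0.85 over 12 arrays, -0.49 within the 6 corn oil and 0.13 within the 6 olive oil arrays). With the index in the model its difference at 70% fat was 0.01 ± 0.26 (adjusted p = 0.990). Of the 12 fits that each left out an array 11 lost its call at 70% fat (adjusted p up to 0.126). Without pool 3 of 70% corn oil, at -0.97, the difference was -0.39, and that pool also had the lowest value of M24604_at, -0.81, against 0.04 and -0.06 in the other 70% corn oil pools. Without that pool both Pcna probe sets passed at 5% fat, in opposite directions, M24604_at at 0.38 (adjusted p = 0.0122) and M24604_g_at at -0.50 (adjusted p = 0.00389). The pool is not part of the 5% fat comparison, so these differences did not change. Only the spread shared by the diets fell, to an SE of 0.09 for M24604_at and 0.10 for M24604_g_at. By fat level M24604_at was at -0.56 ± 0.18 with corn oil (adjusted p = 0.119), and 0.05 ± 0.18 with olive oil (adjusted p = 0.975), and M24604_g_at at -0.05 ± 0.17 and 0.08 ± 0.17 (adjusted p = 0.909 and 0.955).

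Ccnb1, the mitotic cyclin that activates Cdk1, differed between diets on 1 of its 2 probe sets. X64589_at had -0.08, -0.21 and -0.28 in the 70% corn oil pools, against 0.20, 0.11 and 0.12 in the 5% corn oil pools (-0.33 ± 0.08, adjusted p = 0.0622). Without pool 1 of 70% corn oil this passed (-0.39, adjusted p = 0.0400). With olive oil it had 0.23, 0.09 and 0.08 in the 70% pools, against -0.20, -0.19 and -0.08 in the 5% pools (0.29 ± 0.08, adjusted p = 0.274). The pools of the diets did not overlap in either comparison, and the directions were opposite. Of all probe sets 0.938% showed this pattern, lower with fat under corn oil and higher under olive oil with no overlap.

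Between the oils X64589_at passed the test at both fat levels, with opposite signs. Corn minus olive oil was -0.32 ± 0.08 at 70% fat (adjusted p = 0.0355) and 0.30 ± 0.08 at 5% fat (adjusted p = 0.0255), which are 1.25-fold lower and 1.23-fold higher. Of the 12 fits that each left out an array 7 lost the call at 70% fat (adjusted p up to 0.139) and 4 that at 5% fat (adjusted p up to 0.0903). The test of the difference between the fat effects gave -0.62 ± 0.12, the 6th smallest p of 8740 (unadjusted p = 0.000200, adjusted p = 0.255). As 1 value per gene Ccnb1 passed at neither fat level, with -0.12 at 70% (adjusted p = 0.374) and 0.23 at 5% fat (adjusted p = 0.0568). With the index as a covariate the differences between the oils were -0.38 at 70% fat (adjusted p = 0.562) and 0.20 at 5% fat (adjusted p = 0.909). The other Ccnb1 probe set, rc_AA998164_s_at, was between -0.06 and 0.16 in the 4 comparisons, with no call (adjusted p from 0.235 upward), and the pair correlated at r = 0.28 over the 12 arrays.

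**Figure D2:**
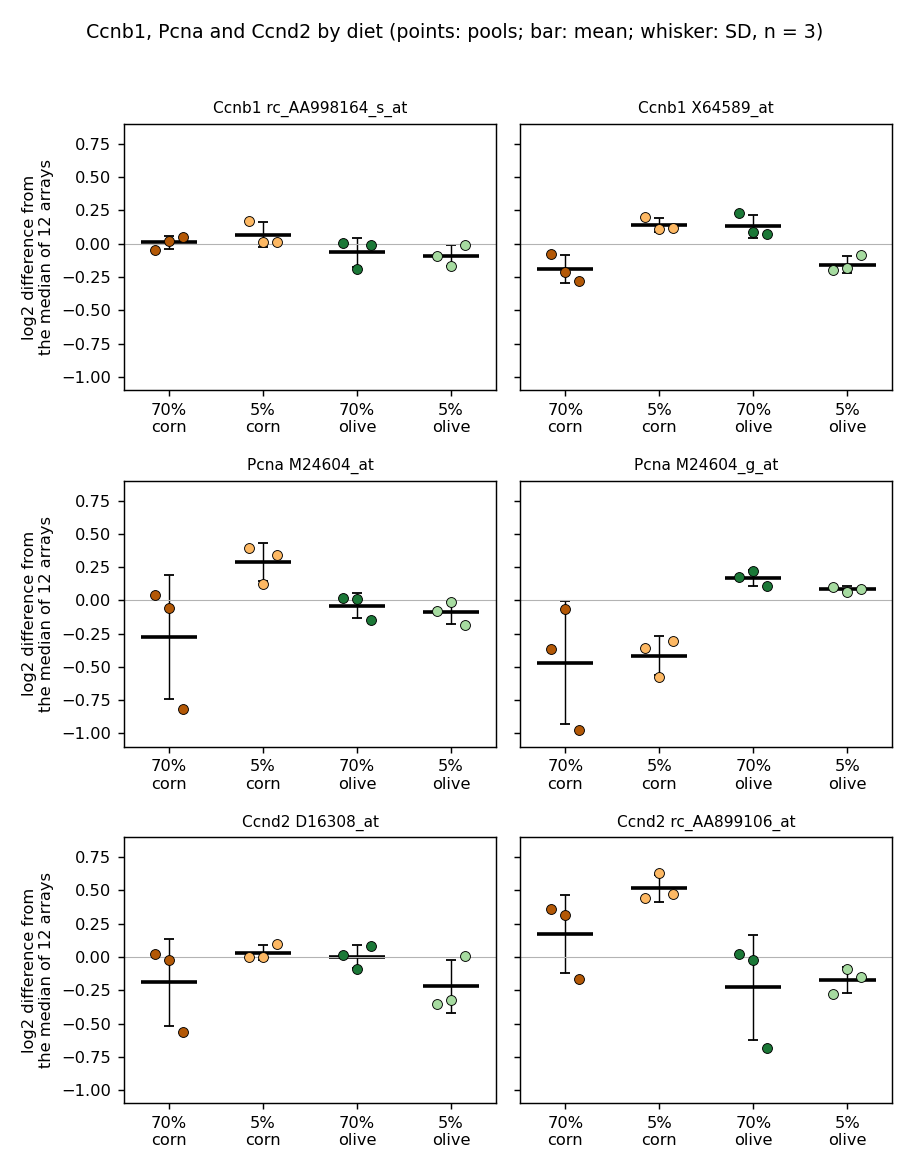
Values of the probe sets of Ccnb1, Pcna and Ccnd2 (y axis, log2 difference from the median of 12 arrays) in the 4 diets, with a point per pool, a bar at the mean and a whisker of 1 SD (n = 3). X64589_at is below 0 in all pools of 70% corn oil and 5% olive oil and above 0 in all pools of the other diets, and on Pcna M24604_g_at all corn oil pools lie below all olive oil pools.

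Cdk1, the kinase partner of Ccnb1, passed no test. It had 0.25, -0.06 and 0.38 in the 70% corn oil pools, against 0.05, 0.00 and -0.05 in the 5% corn oil pools (0.19 ± 0.11, adjusted p = 0.407). With olive oil it was at 0.16 ± 0.11 (adjusted p = 0.800), and the mean of both fat effects was 0.17 ± 0.08 (adjusted p = 0.344). The difference between the fat effects was 0.03 ± 0.16, with a 95% interval of -0.32 to 0.37.

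Top2a, which decatenates chromosomes before mitosis, passed no test on any of its 3 probe sets. On D14045_s_at the 70% olive oil pools had 0.28, 0.14 and 0.17, against -0.05, -0.20 and 0.01 in the 5% olive oil pools (0.28 ± 0.08, adjusted p = 0.299). On all 3 the pools of 70% olive oil lay above those of 5% olive oil, with differences of 0.28, 0.20 and 0.16 (adjusted p = 0.299, 0.853 and 0.735). Such a separation was found on 12.8% of all probe sets. With corn oil the fat effects were -0.07, -0.03 and 0.04 (adjusted p from 0.706 to 0.951). Between the oils at 70% fat D14045_s_at was at -0.22 ± 0.08 (adjusted p = 0.139). The probe sets of Top2a correlated with each other between r = -0.005 and 0.37 over the 12 arrays.

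Across the 20 probe sets, 0 passed the test for the fat effect with olive oil by limma (4 at an unadjusted p under 0.05, where 8.46% of all probe sets lay), and 0.435% of all probe sets were called. With corn oil 4 of the 20 lay at an unadjusted p under 0.05, against 18.8% of all. By sign 19 of the 20 were higher at 70% fat with olive oil, against 59.2% of all probe sets, and their median was 0.14, against 0.03 over all. With corn oil 4 of the 20 were higher and 16 lower at 70% fat, against 48.3% of all that were higher, and the median was -0.09, against -0.01 over all. The 15 that were lower with corn and higher with olive oil compare with 29.1% of all probe sets. The pools did not overlap on 6 probe sets that were lower with corn oil (10.4% of all) and on 7 that were higher with olive oil (12.8% of all). These counts describe probe sets that share genes, and no test was made on them.

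**Figure D3:**
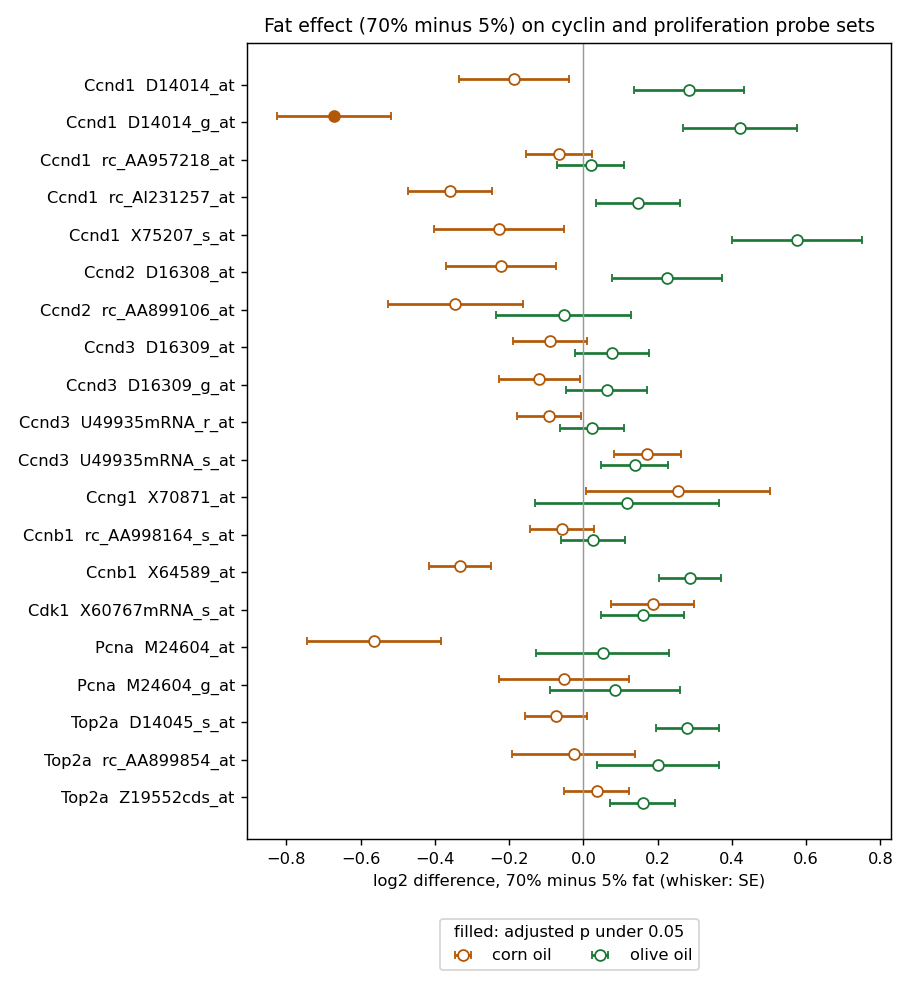
Fat effect, 70% minus 5% fat (x axis, log2 difference with a whisker of 1 SE), for the 20 probe sets with corn oil (brown) and olive oil (green), with filled points at an adjusted p under 0.05. Only 1 point is filled, Ccnd1 D14014_g_at with corn oil at -0.67, and 19 of the 20 olive oil points lie above 0.

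The test of whether the fat effect differed between the oils called 0 of the 20 and 0 of 8740 probe sets (0%) by limma. At an unadjusted p under 0.05 it had 7 of the 20, all with a lower value for corn oil, against 11.8% of all probe sets, 6.33% of all being lower. Besides the Ccnd1 and Ccnb1 probe sets given above these were Ccnd1 D14014_at (-0.47 ± 0.21), Pcna M24604_at (-0.62 ± 0.25) and Top2a D14045_s_at (-0.35 ± 0.12), with adjusted p from 0.342 to 0.409. The mean of the fat effects over both oils called 0 of the 20 by limma (2 at an unadjusted p under 0.05, Cdk1 and Ccnd3 U49935mRNA_s_at, against 14.5% of all), where 2.28% of all probe sets were called, and the median of the 20 was -0.003.

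For corn minus olive oil at 5% fat 5 of the 20 passed, all higher with corn oil, where 19.5% of all probe sets were called, 10.1% of all as higher. At 70% fat 2 of the 20 passed, both lower with corn oil, where 8.51% of all were called, 4.55% of all as lower. Pools did not overlap on 8 that were higher and 3 that were lower with corn oil at 5% fat (25.1% and 16.2% of all), and on 4 that were lower at 70% fat (13.4% of all). The median of the 20 was -0.14 at 70% fat, against 0.01 over all, and 0.15 at 5% fat, against 0.06 over all.

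**Figure D4:**
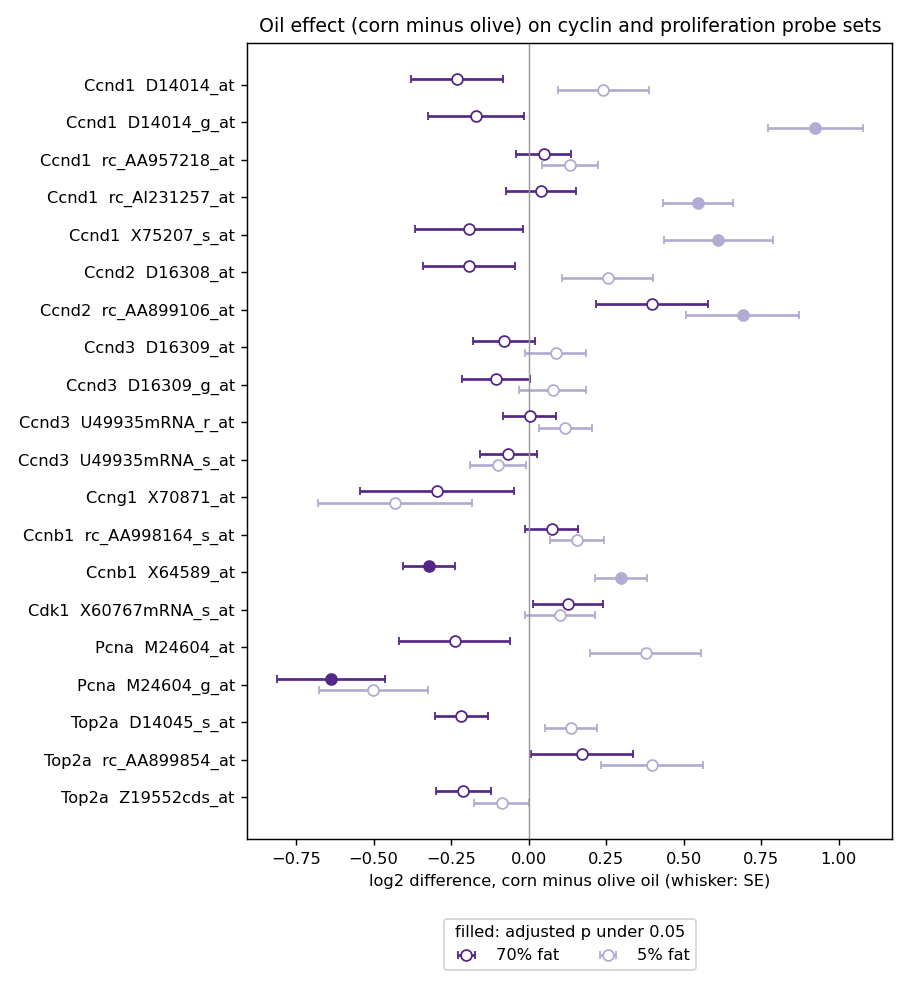
Oil effect, corn minus olive oil (x axis, log2 difference with a whisker of 1 SE), for the 20 probe sets at 70% fat (dark) and 5% fat (light), with filled points at an adjusted p under 0.05. The 5 filled points at 5% fat lie to the right of 0 and the 2 at 70% fat to the left, and Ccnb1 X64589_at is filled on both sides.

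Other genes of the cell cycle were read from 5 lists. Of their 148 genes 77 were measured, on 123 probe sets, and 0 of these passed for the fat effect with either oil by limma (22 with corn oil and 6 with olive oil at an unadjusted p under 0.05). That unadjusted p was reached by 18.8% of all probe sets for corn oil and by 8.46% for olive oil. The medians of the 123 were -0.08 with corn oil and 0.04 with olive oil, against -0.01 and 0.03 over all. Between the oils 24 of the 123 passed at 5% fat, 13 higher and 11 lower with corn oil. This is 19.5%, the share also called among all probe sets. At 70% fat 9 passed, 3 higher and 6 lower, which is 7.32%, against 8.51% of all.

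In the list of G1 and S phase cyclins, kinases and E2F, with 16 probe sets of 11 genes, Cdk4, the kinase partner of the D-type cyclins, was lower with corn oil at both fat levels, at -0.80 for 70% (adjusted p = 0.0423) and -0.91 for 5% fat (adjusted p = 0.0119). Its values were -0.41, -0.08 and -1.22 in the 70% corn oil pools, against 0.08, 0.34 and 0.25 in the 70% olive oil pools, a pattern close to that of Pcna M24604_g_at (r = 0.96 over 12 arrays). Cdk2, which acts with E-type cyclins, was at -0.54 for 70% fat (adjusted p = 0.0120), and the retinoblastoma family members Rb1 and Rbl2 rose by 0.45 and 0.67 at 5% fat (adjusted p = 0.0468 and 0.0110).

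Among CDK inhibitors and p53 targets, with 17 probe sets of 8 genes, Cdkn1b, the inhibitor p27, was higher by 0.76 with corn oil at 5% fat (adjusted p = 0.00471) and Cdkn1a, the inhibitor p21, was lower at 70% fat, at -0.34 (adjusted p = 0.0292). Gadd45a, a growth arrest gene, fell at 5% fat, with -1.03 (adjusted p = 0.0273) and -0.82 (adjusted p = 0.00414) on the called probe sets. On the first the pools overlapped, with 0.17, -0.79 and -1.17 in the 5% corn oil pools, against 0.05, 0.56 and 0.67 in the 5% olive oil pools. The antiproliferative gene Btg1 also fell at 5% fat, with -0.75. Of 26 probe sets of DNA replication, 5 were called higher and 1 lower with corn oil at 5% fat. Of all probe sets 19.5% were called there, 10.1% of all as higher. Tyms, the thymidylate synthase, rose by 0.52 (adjusted p = 0.00203). Rfc4, a subunit of the clamp loader that places Pcna on DNA, rose by 0.64 on rc_AA819500_g_at (adjusted p = 0.0126). The large subunit Rfc1 was at 0.58 on 1 called probe set and at -0.57 on another, and the first was also called at 70% fat (0.49).

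Of 21 probe sets of mitosis, Aurkb, the kinase of the chromosomal passenger complex, rose by 0.39 with corn oil at 5% fat (adjusted p = 0.0146), the tubulin Tuba1b by 0.95 and by 0.55 at 70% fat, and Stmn1, which destabilises microtubules, by 0.30 at 70% fat (adjusted p = 0.0462). The tubulin Tubb5 fell at 5% fat, with -0.40. Among growth signals, with 43 probe sets of 23 genes, the hepatocyte growth factor receptor Met fell with corn oil on 3 probe sets at 5% fat, with -1.07, -0.93 and -0.58, and on 2 at 70% fat, with -0.81 and -0.56. Jun, an immediate-early factor, rose by 0.48 at 5% fat (adjusted p = 0.0258), and Stat3, which carries interleukin signals, fell at 70% fat, with -0.66 (adjusted p = 0.0296).

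For fat level the smallest p of each list missed the threshold. With corn oil these were Rbl2 (-0.59, adjusted p = 0.0805), Btg3 (-0.40, 0.160), Rfc4 rc_AI237756_at (-0.37, 0.0839), Tubb5 (0.50, 0.0528) and Egr1 (-1.67, 0.0942). With olive oil they were Cdk2 (0.34, adjusted p = 0.329), Mdm2 (0.28, 0.372), Pold1 (0.27, 0.498), Plk1 (0.22, 0.602) and Jun (0.29, 0.593). For the difference between the fat effects 0 of the 123 passed by limma (16 at an unadjusted p under 0.05, against 11.8% of all probe sets). The smallest p of each list belonged to E2f5 (-0.47), Mdm2 (-0.49), Pold1 (-0.52), Stmn1 (0.28) and Jun (-0.60), with adjusted p from 0.288 to 0.402.

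Markers of the liver's cell types moved between the oils too, and their part in the results on the cyclins was not tested. At 5% fat 16 of 53 marker probe sets (30.2%) passed, 8 higher and 8 lower with corn oil, against 19.5% of all probe sets. Of 12 hepatocyte probe sets 4 were lower, Alb (-0.76), Apoa1 (-0.77) and Serpina1 on both (-0.85 and -0.27), and the mean of this list ran from -0.20 to -0.14 in the 5% corn oil pools and from 0.05 to 0.07 in the 5% olive oil pools. Of 11 stellate cell probe sets 3 were higher, namely Col1a1 by 2.29, Col3a1 by 0.98 on X70369_s_at and Col1a2 by 0.80, while Col3a1 M21354_s_at was not called. This list ran from 0.04 to 0.27 in the 5% corn oil pools and from -0.38 to -0.01 in the 5% olive oil pools. Of 11 lymphocyte probe sets 1 was called, K03039mRNA_s_at of the leukocyte gene Ptprc, which rose by 1.27 (adjusted p = 0.000416). Ptprc M10072mRNA_s_at was not called. The lymphocyte list ran from 0.08 to 0.20 in the 5% corn oil pools and from -0.05 to 0.01 in the 5% olive oil pools. Of 9 macrophage probe sets Aif1 was higher (0.78) and Cd14 and C1qb X71127_g_at were lower (-0.86 and -1.02), while C1qb X71127_at was not called. The macrophage list ran from -0.19 to 0.14 in the 5% corn oil pools and from -0.16 to 0.28 in the 5% olive oil pools. Of 4 endothelial probe sets Kdr was higher (0.56) and Pecam1 lower (-0.42), and of 4 cholangiocyte probe sets Spp1 and Krt19 were higher (0.70 and 0.53) and Epcam lower (-0.60). The deposited values hold no level at which a marker could be read as absent.

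By fat level with corn oil 2 of the 53 marker probe sets (3.77%) passed by limma, against 2.11% of all, and so did Ccnd1 D14014_g_at. Ptprc was lower at 70% fat on K03039mRNA_s_at, at -0.94 (adjusted p = 0.0146), and not called on M10072mRNA_s_at. Albumin (Alb) was higher by 0.59 on rc_AA860062_g_at (adjusted p = 0.0304). Ptprc K03039mRNA_s_at had 0.30, -0.20 and 0.65 in the 70% corn oil pools, against 1.35, 1.20 and 1.04 in the 5% corn oil pools. The erythroid list, of 2 probe sets, ran from -0.49 to -0.33 in the 70% corn oil pools and from -0.14 to 0.56 in the 5% corn oil pools, with no call. With olive oil 0 of the 53 passed by limma (7 at an unadjusted p under 0.05, where 8.46% of all probe sets lay). For the mean of the fat effects over both oils 1 of the 53 (1.89%) passed by limma, against 2.28% of all. It was the endothelial marker Kdr, lower at 70% fat (-0.56, adjusted p = 0.0166). At 70% fat 2 of the 53 (3.77%) passed between the oils, against 8.51% of all probe sets. They were Col1a2, higher (0.52), and Cd14, lower (-0.90) with corn oil. For these markers too a part in the results on Ccnd1, Ccnb1 and Pcna was not tested.

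The probe sets most like each called member over the 12 arrays were taken as the 3 with the highest Pearson r among those of 1 other gene. The arrays share diets and the 3'/5' index, so r describes these arrays alone. For Ccnd1 D14014_g_at these were Cpg1 (r = 0.96), Glud1 (0.90) and Cyp4f6 (0.87), for rc_AI231257_at Cryab (0.93), Paqr3 (0.91) and Akr1b1 (0.91), and for X75207_s_at Slit1 (0.89), Klk1c12 (0.88) and Nup153 (0.85). For Ccnb1 X64589_at they were Faslg (0.94), Thbd (0.91) and Cryaa (0.89). For Ccnd2 rc_AA899106_at they were Atp5f1b (0.95), Pfkp (0.93) and Rpl35a (0.92), and for Pcna M24604_g_at Hprt1 (0.97), Cdk4 (0.96) and Hspa9 (0.96). No gene was on more than 1 of these 6 lists.

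Among the members themselves, the 22 pairs of probe sets of 1 gene had r between -0.13 and 0.84, with a median of 0.32, and the 168 pairs of different genes had r between -0.90 and 0.88, with a median of 0.20. Ccnd1 D14014_g_at and X75207_s_at were at r = 0.84, while the 10 pairs of Ccnd1 ran down to -0.07. Ccnb1 X64589_at followed Ccnd1 D14014_g_at at r = 0.63 and Top2a D14045_s_at at r = 0.71. The correlation with the 3'/5' index was 0.78 for Ccnd1 rc_AI231257_at, 0.61 for Ccnd1 D14014_g_at and 0.19 for Ccnb1 X64589_at over the 12 arrays. Within the 6 corn oil arrays it was 0.70, 0.56 and 0.67 for these probe sets, and within the 6 olive oil arrays -0.12, 0.25 and 0.28.

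**Figure D5:**
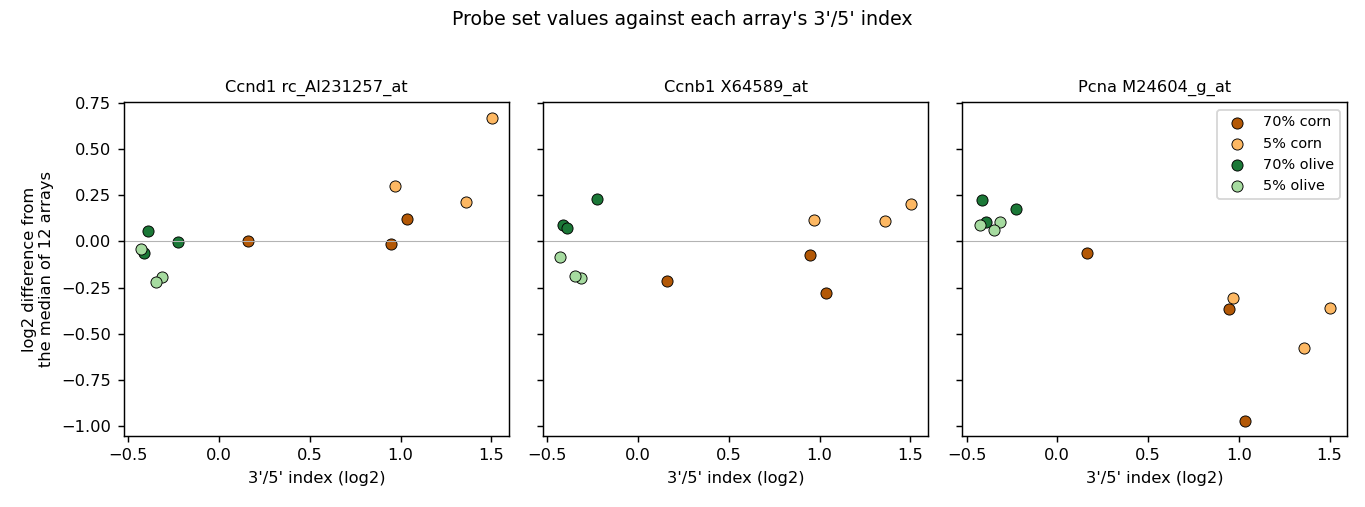
Values of 3 probe sets (y axis, log2 difference from the median of 12 arrays) against the 3'/5' index of each array (x axis, log2), with a point per array coloured by diet. Ccnd1 rc_AI231257_at lies higher at a higher index (r = 0.78) and Pcna M24604_g_at lower (r = -0.85), while Ccnb1 X64589_at separates the fat levels in opposite directions on the left, with olive oil, and on the right, with corn oil.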

How the data were processed

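Liver RNA pools on 12 single-colour Affymetrix arrays were used. The table the authors deposited has log2 values of 8799 probe sets, and the submitters' processing notes name GCOS and RMA without versions. The table does not write the base, and the log2 base of RMA was assumed. The deposited values are centred, since the median of the 12 arrays lay within 1e-06 of 0 in 100% of rows. Signal over background is thus unknown, no filter on low values was applied, and precision is limited by the count of arrays. There were 0 columns of other samples.

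From these values 59 array controls were left out and 8740 probe sets tested. The platform annotation gave 1 symbol to 7006 probe sets, several to 308 and none to 1426, and 6985 symbols were updated through the gene identifier to GRCr8. A linear model with a mean per diet was fitted to all 12 arrays in limma 3.58.1 (R 4.3.3), with 8 residual degrees of freedom and eBayes moderation. The contrasts were both fat effects, both oil effects, their interaction and the mean fat effect. P-values are two-sided and adjusted by Benjamini-Hochberg over all probe sets within a contrast, with a threshold of 0.05. No 2 arrays were duplicates, since the closest pair differed by 0.195 (root mean square).

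Members and gene lists were chosen with earlier results of these data known. The text names all member probe sets. Of the listed genes it names those past the threshold, up to 4 per list and contrast, or else a part of those with the smallest p. For each called member it names the 3 most correlated probe sets of other genes. Alternatives were another scaling, the pool number as a block, the 3'/5' index as a covariate, other moderation, array weights, fits on 2 groups, 1 value per gene and leaving out each array. The code was tested on simulated data. Plots used matplotlib 3.10.9.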

Additional observations from a re-analysis of the deposited data

Results flagged for a closer look

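Ccnb1 X64589_at stood out because every 70% corn oil pool lay below every 5% corn oil pool, while every 70% olive oil pool lay above every 5% olive oil pool. The difference between the fat effects, corn minus olive oil, was -0.62 (limma adjusted p = 0.255), so the test of it over all probe sets was not passed. Ccnd1 X75207_s_at showed the same separation, with a difference of -0.80 (limma adjusted p = 0.328). With olive oil its lowest 70% pool was at -0.226 and its highest 5% pool at -0.227, so the pools barely separated.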

How the results depend on the processing

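The table holds centred values with 3 pools per diet, so weak signals cannot be told from background and small differences may go undetected. The count of members called was 1 for the fat effect with corn oil, 2 and 5 for the oil effects at 70% and 5% fat, and 0 for the other contrasts. With corn oil it was 0 with each array centred, after a second quantile normalization, with the index, with trend and robust moderation and with array weights. Array weights gave 2 with olive oil, which were Ccnb1 X64589_at (0.30, adjusted p = 0.0337) and Top2a D14045_s_at (0.33, adjusted p = 0.0343). The oil effect at 70% fat had 1 member with each array centred, with trend and robust moderation or with array weights, and 0 with the index or on the arrays of both groups alone. At 5% fat there were 0 with the index and 8 with array weights. With 1 value per gene 0 members were called for the fat effect with corn oil (1 gene by probe set) and 0 for the oil effect at 70% fat (2 genes by probe set).

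The member count ran from 0 to 1 over the left-out arrays for the fat effect with corn oil, from 0 to 1 for the oil effect at 70% fat and from 2 to 8 for that at 5% fat. Over all probe sets the ranges were 59 to 348 (184 with all arrays) and 10 to 69 (38) for the fat effects with corn and olive oil, 311 to 1162 (744) and 1115 to 2065 (1704) for the oil effects at 70% and 5% fat, 0 to 10 (0) for the interaction and 116 to 233 (199) for the mean fat effect. The count for the fat effect with corn oil was 51 after the quantile step, 40 with the index and 53 on both groups alone. With olive oil it was 22 with arrays centred, 98 after the quantile step, 64 with the index, 138 with array weights and 97 on both groups alone. The oil effects had 0 calls each with the index, a fit that cannot tell oil and index apart. They had 334 at 70% fat on both groups alone and 2632 at 5% fat with array weights. The interaction had 2 with array weights, and the mean fat effect 123 with the index.

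The pool numbers were not used as pairs. After each diet's mean was taken off, same-numbered pools of different diets correlated between -0.19 and 0.11. With 3 such pairs per comparison of diets this cannot show whether the numbers pair the arrays. With the pool number as a block the members called were 0 for the fat effect with corn oil and 1 for the oil effect at 70% fat, and the interaction had 1 call over all probe sets. Without an array the call most often lost was that of Pcna M24604_g_at at 70% fat, which was also the 1 called member value that changed sign, at 0.0142 with the index. Of the member values past no threshold in either fit, 112 changed sign. Only the few members called with all arrays could lose a call, each in 12 fits without an array and 7 other settings. Of 2240 recomputed member values, most of which had no call to lose, 57 lost and 13 gained a call. The cause was not tested. Among the calls of the fat effects the split of higher and lower was 114 and 70 with corn oil, against 26 and 25 after the quantile step, and 11 and 27 with olive oil, against 4 and 18 with arrays centred.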
